A study of Bos taurus with 8 samples.

Results

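The experiment compared bovine blastocysts from oocytes matured with bovine insulin at 10 µg/ml against blastocysts from oocytes matured with no added insulin. It comprised 4 of the 8 arrays of the study, taken by their labels alone, and all genes and pathways on these arrays were examined. Each array was hybridised with 2 samples: RNA of the insulin group in one dye and RNA of the control group in the other. Insulin was labelled with Cy5 on replicates 1 and 2 and with Cy3 on replicates 3 and 4. The other 4 arrays, on a second slide, set insulin at 0.1 µg/ml against the same kind of control. Control and insulin groups alike came from slaughterhouse ovaries and passed through the same laboratory maturation, fertilisation and embryo culture, and per the labels insulin was a component of the maturation medium. RNA was isolated with a kit for picogram samples, amplified linearly and labelled without an enzyme. The series describes 4 biological replicates per treatment. How many embryos were pooled in a replicate is not given in the sources used here.

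Insulin binds the insulin receptor, INSR, and with lower affinity the IGF1 receptor, and passes its signal through the PI3K, AKT and mTOR branch and the RAS and MAP kinase branch. The IGF2 receptor, IGF2R, has no kinase and carries IGF2 and lysosomal enzymes to the lysosome. In the ovarian follicle, the cumulus and granulosa cells around the oocyte respond to insulin with glucose uptake and steroid synthesis. A blastocyst forms days later and holds an outer epithelium, the trophectoderm, an inner cell mass and an emerging hypoblast. Arrays of whole blastocysts measure all of these together, so fewer cells of a type and less RNA per cell cannot be told apart.

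Genes that changed between the high insulin dose and the control were nearly all higher with insulin, and the rises were modest. Of 11718 named genes measured, 68 rose and 1 fell (limma, Benjamini-Hochberg adjusted p under 0.05 over all probes). The share of all named genes was 0.58% for rises and 0.00853% for falls. The rises ranged from 1.64-fold to 2.85-fold, with a median log2 ratio of 0.92, and 25 genes rose more than 2-fold. PRPF6, LMNA, SEC13, ATP5D and CYP11A1 had the highest ratios. PRM1, which encodes a protamine that packs sperm DNA, was the gene that fell. The plot of all named genes shows the imbalance: the right arm holds the called genes and reaches further than the left.

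**Figure D1:**
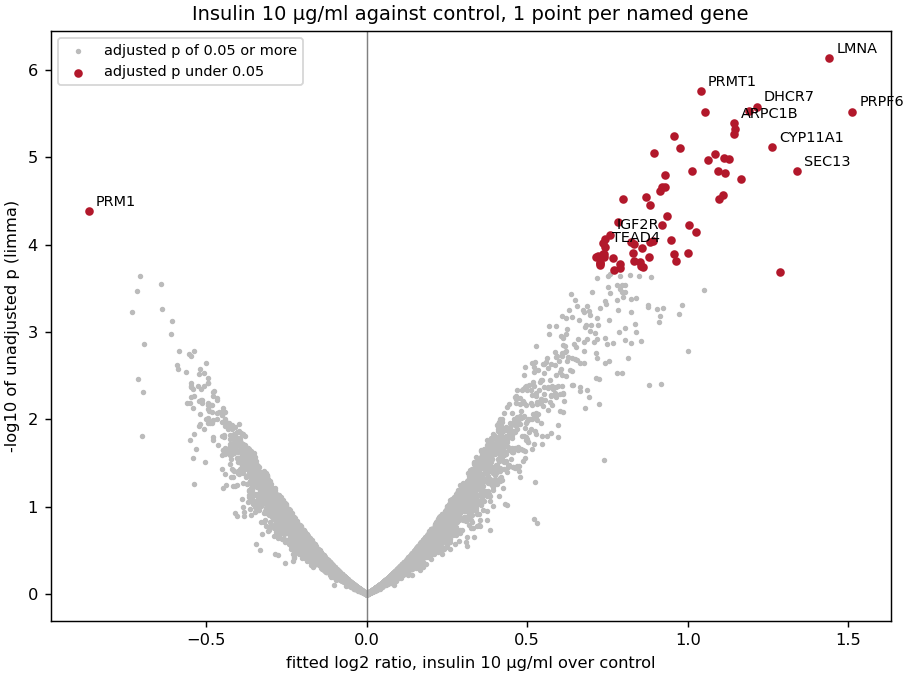
Each point is 1 of 11718 named genes. The horizontal axis gives the fitted log2 ratio of insulin at 10 µg/ml over control and the vertical axis the -log10 of the unadjusted limma p. Red points are the 69 genes with an adjusted p under 0.05, of which 68 lie on the right and PRM1 on the left.

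Counted by probe, 128 of 29384 probes passed the threshold, which is 0.436%. Higher probes numbered 123 (0.419%) and lower probes 5 (0.017%). Of these, 48 carried no gene symbol, 44 of them higher and 4 lower. Without adjustment, 1989 probes had a p under 0.05, of which 1259 were higher and 730 lower. The calls leaned on each of replicates 1, 2 and 3: leaving out any of these gave 0 calls, and leaving out replicate 4 gave 130. The count was also 0 with a normexp offset of 16, with no dye term, and with the trend and robust options of eBayes. In each of these fits all 68 genes stayed positive with an unadjusted p under 0.05, and the smallest adjusted p over all probes was between 0.0504 and 0.621. No called gene changed sign under any of the 22 alternatives tried, and each lost its call under at least 1. The genes were picked from these same arrays, so their sign and unadjusted p in such refits were largely set by the selection.

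The 4 arrays differed in ways that bear on every gene. Between 51.6% and 58.8% of probes were above the limit set by the negative controls in a channel. Arrays of the same dye orientation correlated at r = 0.30 and 0.37 across 29384 probes, and arrays of opposite orientation at r between -0.12 and -0.18. A dye effect passed the threshold for 1538 probes, 5.23% of those tested. With this orientation, the dye term also takes up any difference between replicates 1 and 2 and replicates 3 and 4. Among the 69 called genes, TUBB3 was the one with a dye effect past the threshold (adjusted p = 0.0359). The called probes lay among the brighter ones: in 5 equal bins from the dimmest probes to the brightest, 0, 1, 11, 52 and 59 were called higher. The part of brightness in the calls was not tested.

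The called genes had the same sign on all 4 arrays, which 11.8% of all probes had (6.69% positive on all 4 and 5.06% negative on all 4). They were called from the ratios on these 4 arrays, so agreement between arrays in this paragraph follows largely from the selection. The median log2 ratio of the 68 higher genes was 1.04, 0.89, 0.97 and 0.76 on replicates 1 to 4. Replicate 4 gave the lowest of the 4 values for 27 of the 68 genes. On each array apart, between 58 and 63 of them exceeded a log2 ratio of 0.5, and 40 exceeded it on every array. Their standard deviation over the 4 arrays had a median of 0.36, against 0.32 for all probes. All 68 were detected in the 4 insulin channels, and 63 were detected in all 4 control channels.

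**Figure D2:**
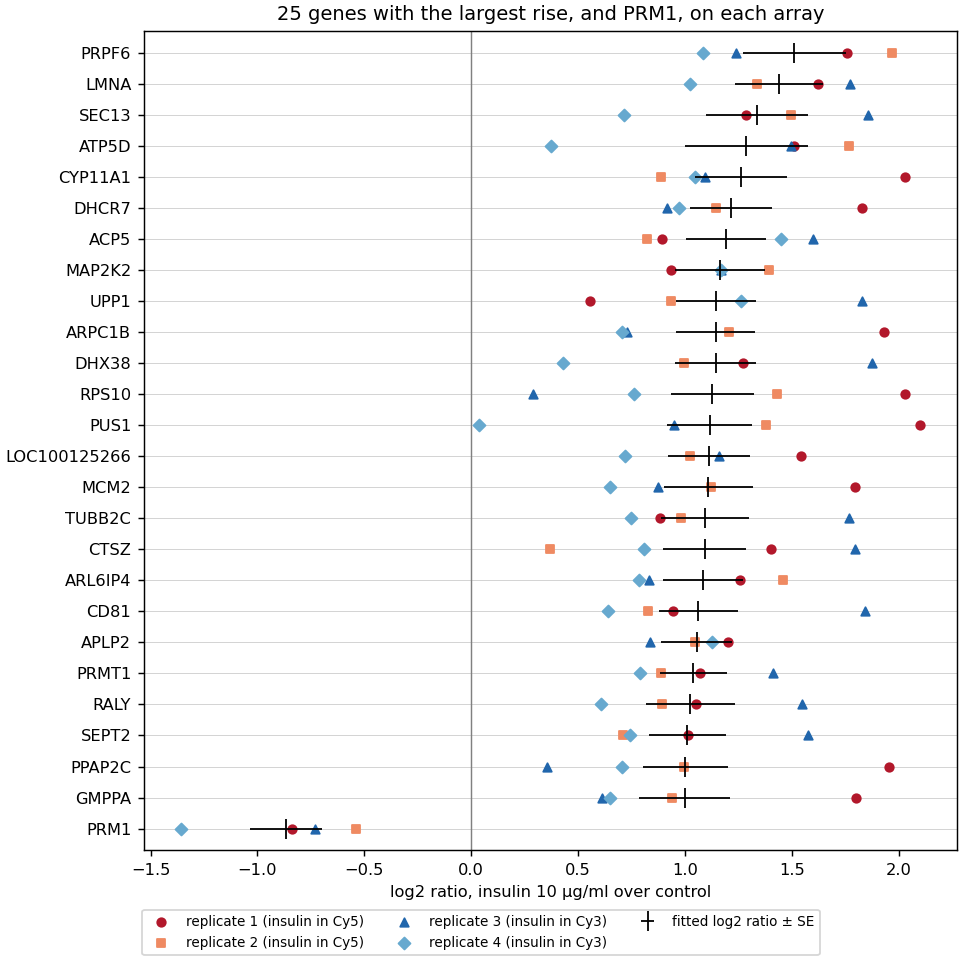
Log2 ratios of insulin over control on each of the 4 arrays for the 25 genes with the largest rise and for PRM1, with symbols by replicate and dye. The vertical tick and bar give the fitted ratio and its standard error. Every point of the 25 genes lies above 0, the lowest being PUS1 on replicate 4 at 0.04, and the 4 points of PRM1 lie below 0.

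Genes for RNA splicing and RNA modification gave the largest single rise. PRPF6, a bridging protein of the U4/U6.U5 particle of the spliceosome, had log2 ratios of 1.76, 1.97, 1.24 and 1.09 on replicates 1 to 4. All arrays lay above 1, and the 2 arrays with insulin in Cy5 were the higher pair. The fitted ratio was 1.51 ± 0.24 (SE), a 2.85-fold rise (limma adjusted p = 0.0101). DHX38, a helicase of the splicing cycle, had ratios of 1.27, 1.0, 1.87 and 0.43, so its replicate 4 lay well below the others (2.21-fold, adjusted p = 0.0101). ARL6IP4, a splicing regulator, rose 2.12-fold, and RALY, an RNA-binding protein of the hnRNP family, rose 2.04-fold. These 4 were the called members among 69 spliceosome genes measured. The median of the 69 was -0.06, beside -0.00 for all named genes, and 27 of 69 were positive. U2AF1, which recognises the 3' splice site, stood at 0.69 (adjusted p = 0.0857) and XAB2 at 0.82 (adjusted p = 0.0873), both short of the threshold. Outside the list, PUS1, which forms pseudouridine in transfer RNA, had ratios of 2.10, 1.38, 0.95 and 0.04. Its range was the widest of the genes above, and replicate 4 was near 0. The other PUS1 probe read -0.13. PRMT1, the main arginine methyltransferase of many RNA-binding proteins, had ratios of 1.07, 0.89, 1.41 and 0.79 (2.06-fold, adjusted p = 0.0101). The other PRMT1 probe read 0.24 and did not pass. The other 6 measured PRMT genes lay between -0.20 and 0.10, with adjusted p of 0.941 or more.

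The nuclear envelope and the secretory pathway were represented by single members of their complexes. LMNA, which encodes the A-type lamins under the nuclear envelope, had ratios of 1.63, 1.34, 1.77 and 1.02. No array lay below 1, and the fitted rise was 2.71-fold (1.44 ± 0.21, adjusted p = 0.0101). The B-type lamins did not pass the test: LMNB1 stood at -0.28 and LMNB2 at 0.26. SEC13, a protein shared by the COPII vesicle coat and the outer ring of the nuclear pore, had ratios of 1.29, 1.5, 1.86 and 0.72 (2.53-fold, adjusted p = 0.0132). Of the 3 further SEC13 probes, 1 passed, at 0.78, and the others stood at 0.40 (adjusted p = 0.621) and 0.15 (adjusted p = 0.972). Averaged over its probes, SEC13 stood at 0.67 and did not pass. None of the other 7 measured COPII genes passed (-0.44 to 0.28, SEC24A the lowest at an adjusted p of 0.449), nor did any of the other 7 measured genes of the pore's outer ring (-0.22 to 0.20). Among 35 lamina and pore genes, 2 rose, and the median was -0.02. SYNE2, a nesprin that ties the nucleus to the cytoskeleton, stood at -0.70 (adjusted p = 0.511), with replicate 4 at -2.32 and the others between -0.30 and -0.08. In the coat list, 1 of 28 rose, with a median of 0.01. GPAA1, part of the enzyme that attaches GPI anchors to proteins, rose 1.73-fold, and the other 4 measured subunits lay between -0.18 and 0.10.

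Beta tubulins rose in 4 of 5 measured genes. Here and in the paragraphs above and below, the families set around a called gene were picked after its value was seen. Every measured member is counted. TUBB2C, now named TUBB4B, had ratios of 0.88, 0.98, 1.77 and 0.75 (2.14-fold, adjusted p = 0.0173). TUBB had ratios of 1.12, 0.82, 1.46 and 0.42 (1.94-fold, adjusted p = 0.0411). TUBB2B had ratios of 0.65, 0.74, 1.44 and 0.88 (1.90-fold, adjusted p = 0.0163). TUBB3 had ratios of 0.41, 0.74, 1.34 and 0.96 (1.82-fold, adjusted p = 0.0458). Replicate 3 was the highest array for all 4 of these genes. The remaining beta tubulin, TUBB6, stood at -0.19. None of 7 alpha tubulins, the partners of beta tubulin in the microtubule, passed the test, and they lay between 0.07 and 0.21. Beta tubulin genes resemble each other closely, and whether each probe reads 1 gene was not checked, so the 4 rises may not be separate measurements. Across 38 tubulin and microtubule genes the 4 rises were the calls, with a median of 0.07. TBCB, a tubulin folding cofactor, stood at 0.71 (adjusted p = 0.126) and STMN1, which binds free tubulin, at 0.41 (adjusted p = 0.558).

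**Figure D3:**
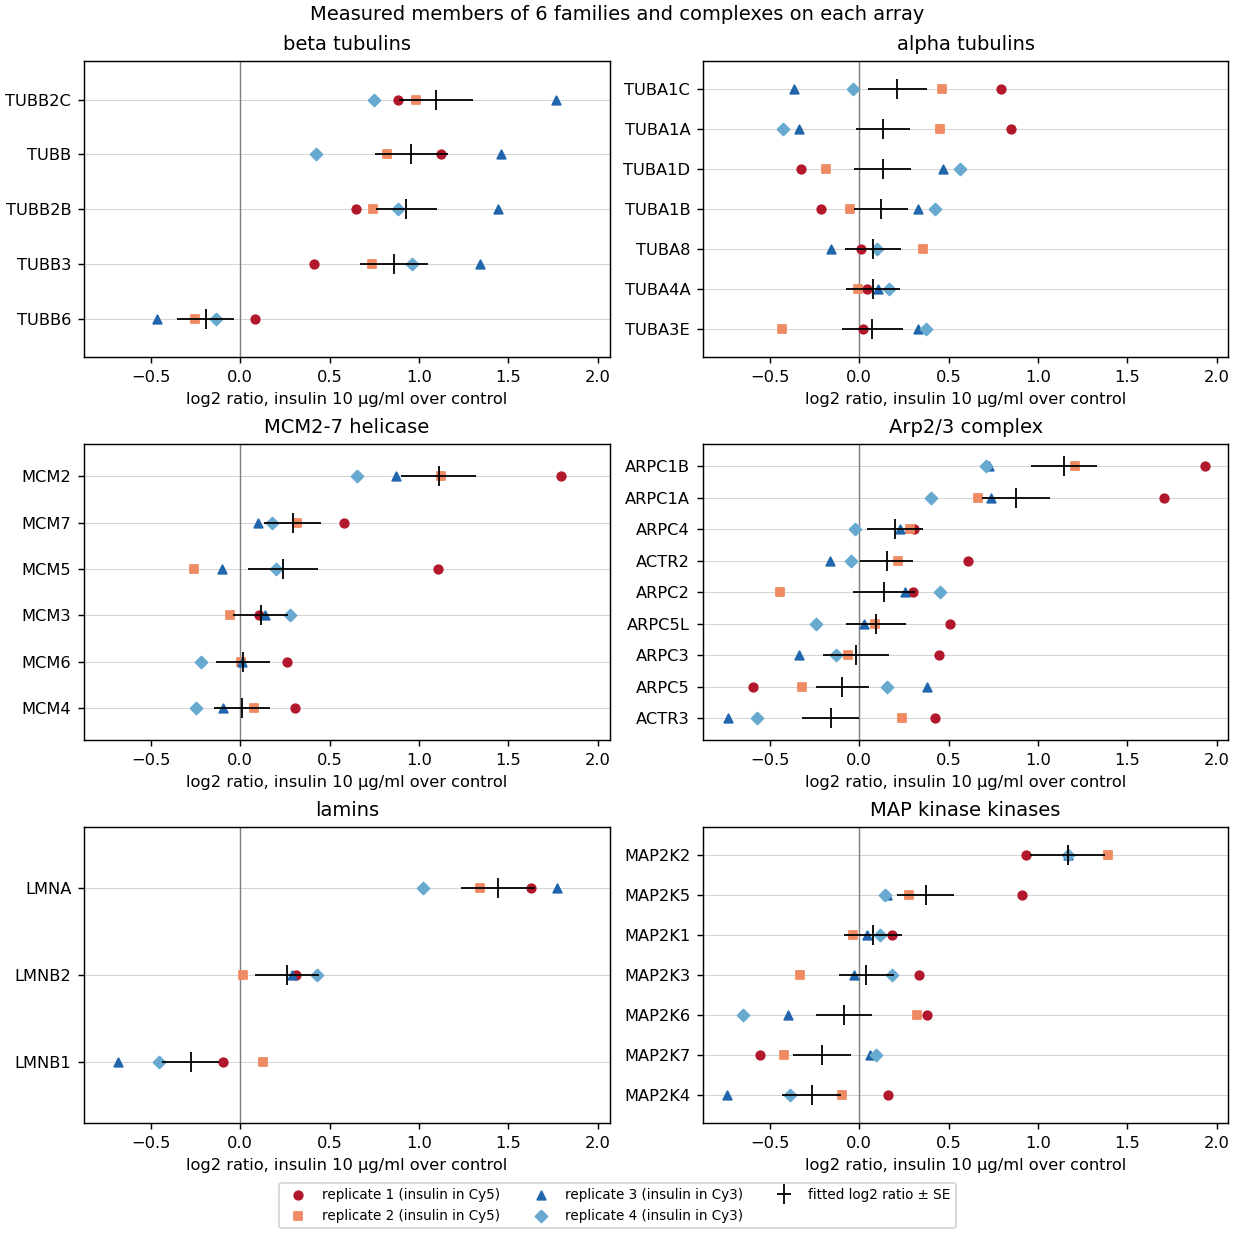
Log2 ratios of insulin over control on each of the 4 arrays for the measured members of 6 families and complexes, with the fitted ratio and its standard error as tick and bar. In the beta tubulins 4 of 5 members lie to the right with their lowest array at 0.41, while the 7 alpha tubulins have fitted ratios between 0.07 and 0.21. MCM2, ARPC1B, ARPC1A, LMNA and MAP2K2 stand to the right of the other members of their panels.

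The Arp2/3 complex nucleates branched actin, and its ARPC1 subunit is encoded by the neighbouring genes ARPC1A and ARPC1B. ARPC1B had ratios of 1.93, 1.21, 0.73 and 0.71 (2.21-fold, adjusted p = 0.0101) and ARPC1A had ratios of 1.71, 0.66, 0.74 and 0.40 (1.84-fold, adjusted p = 0.042). Replicate 1 was the highest array for both. The other 7 measured genes of the complex lay between -0.16 and 0.20. Among 47 actin genes 2 rose, with a median of 0.01. WASF2, an activator of Arp2/3, stood at 0.81 (adjusted p = 0.114), FLNA, an actin cross-linker, at 0.66 (adjusted p = 0.194), and DIAPH3, a formin, at -0.61 (adjusted p = 0.126). SEPT2, now SEPTIN2, which encodes a septin of the cell cortex, rose 2.02-fold by its brightest probe, and its other probe read 0.06. Of 8 keratin and vimentin genes none passed: VIM, the filament of mesenchymal cells, had ratios of 0.40, 1.21, 0.83 and 1.57 (fitted 1.0 ± 0.28, adjusted p = 0.165).

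In the insulin and IGF pathway, 1 of 26 measured genes rose, beside 0.58% of all named genes. Positive ratios numbered 17 of 26, beside 5724 of 11718 named genes. The list's median was 0.16 and 0.10 on replicates 1 and 2 (insulin in Cy5). On replicates 3 and 4 (insulin in Cy3) it was -0.08 and -0.10, so its sign followed the dye. This was not particular to the list. The median of all named genes was 0.04, 0.01, -0.01 and -0.03 on replicates 1 to 4, and that of keratins and vimentin 0.32, 0.29, -0.19 and -0.30. The gene of the insulin and IGF list that rose was IGF2R, with ratios of 0.60, 0.49, 0.96 and 0.99 (1.69-fold, adjusted p = 0.031). All 4 arrays lay near or above 0.5, and the pair with insulin in Cy3 was higher. INSR had ratios of 0.25, 0.12, -0.18 and -0.24, so its sign followed the dye, and its fitted ratio was -0.01 ± 0.15. IGF1R and IRS1 had probes on the array that did not pass the filter on dim probes. PDPK1, the kinase that activates AKT, stood at 0.36 (adjusted p = 0.63), SOS1, an activator of RAS, at -0.39 (adjusted p = 0.68), and the binding proteins IGFBP2 at 0.31 and IGFBP3 at 0.33. For IGFBP2, replicate 4 read -0.11 while the others read 0.44 to 0.46. None of 30 mTOR and AMPK genes passed. PRKAA1, a catalytic AMPK subunit, had the smallest p among them and stood at -0.40 (adjusted p = 0.523). In the MAP kinase list 1 of 24 rose: MAP2K2, the kinase directly upstream of ERK, had ratios of 0.94, 1.39, 1.17 and 1.17 (2.24-fold, adjusted p = 0.0145). The other 6 measured MAP kinase kinases lay between -0.27 and 0.37, with the paralogue MAP2K1 at 0.08. Of the early response genes, JUN stood at 0.54 (adjusted p = 0.342) and FOS at -0.35 (adjusted p = 0.606).

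Among metabolic genes, sterol and steroid synthesis each held 1 called gene. DHCR7, which makes the last step of cholesterol synthesis, had ratios of 1.83, 1.15, 0.92 and 0.97 (2.32-fold, adjusted p = 0.0101). It was the 1 of 22 cholesterol genes that rose, and the list's median was 0.09. MVD, a mevalonate pathway enzyme, had ratios of 1.97, 1.10, 0.12 and 0.73 (fitted 0.98, adjusted p = 0.0795). INSIG1, which restrains sterol synthesis, stood at 0.61 (adjusted p = 0.277). NR1H2, the sterol-sensing nuclear receptor LXR-beta, rose 1.89-fold. CYP11A1, the mitochondrial enzyme that cuts cholesterol to pregnenolone, had ratios of 2.03, 0.89, 1.09 and 1.05 (2.40-fold, adjusted p = 0.0122). Replicate 1 was the highest array, and the other 3 lay close to 1. It was the 1 of 11 steroid genes that rose, while STAR, which delivers cholesterol to it, stood at -0.10 and HSD3B1, which acts next, at 0.03.

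CYP11A1 is also a granulosa cell marker, and so the cumulus and granulosa list was set beside it. Of 19 such genes on the array, 10 were measured, and 9 did not pass the filter, among them LHCGR, AMH, INHA and FOXL2. CYP11A1 was the 1 called. Summed over all 10, the list's level was 10682 to 14970 intensity units in the insulin channels and 8503 to 11479 in the control channels. Without CYP11A1 the sums were 5915 to 8464 and 6848 to 8427, with insulin higher on 1 of 4 arrays. INHBA, an activin subunit, stood at 0.58 (adjusted p = 0.194) and CYP19A1, aromatase, at 0.01.

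Energy metabolism showed few calls. None of 25 glucose transport and glycolysis genes passed: SLC2A1, the basal glucose transporter GLUT1, stood at 0.27 (adjusted p = 0.834) and TPI1, a glycolytic enzyme, at 0.69 (adjusted p = 0.0812). None of 24 genes of the TCA cycle passed, with PC, pyruvate carboxylase, at 0.56 (adjusted p = 0.194). In oxidative phosphorylation 2 of 71 rose and the median was 0.05. ATP5D, now ATP5F1D, the delta subunit of ATP synthase, had ratios of 1.51, 1.77, 1.5 and 0.37 (2.44-fold, adjusted p = 0.0477). Replicate 4 was far below the other 3. The ATP5D call was lost under 12 of 22 alternatives, among them no background correction, no filter and the authors' deposited ratios. Another was the fit that took replicate number as a block and gave each slide its own dye term, 2 choices changed together (adjusted p = 0.0509). The other 14 measured ATP synthase genes lay between -0.16 and 0.27. NDUFA10, a subunit of complex I, rose 1.93-fold by its brightest probe. Its other probes stood at 0.54 and 0.24 and did not pass, nor did the mean of all its probes. UQCRC1 at 0.68 and NDUFB7 at 0.82 were short of the threshold, and each owed much of its ratio to 1 array (replicate 1 at 1.58 and replicate 3 at 1.92). Lipid storage and the making of fatty acids were covered by 30 genes, none of which passed. FADS2, the delta-6 desaturase, came closest at 0.75 (adjusted p = 0.0503), while FADS1, the delta-5 desaturase, stood at -0.36. None of 22 genes of fatty acid oxidation passed, and ACAA1, a peroxisomal thiolase, stood at 0.66 (adjusted p = 0.101).

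Nucleotide handling and DNA replication gave further single genes. UPP1, which splits uridine for salvage, had ratios of 0.56, 0.93, 1.83 and 1.26 (2.21-fold, adjusted p = 0.0101). All 3 UPP1 probes passed. It was the 1 of 26 genes called in the list of the pentose phosphate pathway and nucleotide synthesis, in which CAD, the first enzyme of pyrimidine synthesis, stood at 0.64 (adjusted p = 0.0949). DTYMK, which makes the thymidine diphosphate needed for DNA, rose 1.67-fold by its brightest probe. The further DTYMK probes, none of which passed, lay between -0.02 and 0.51. MCM2, a subunit of the helicase that opens replication origins, had ratios of 1.79, 1.12, 0.87 and 0.65 (2.16-fold, adjusted p = 0.0173). The other 2 MCM2 probes read -0.09 and -0.15, so the rise rests on the brightest of 3 probes. The other 5 subunits, MCM3 to MCM7, lay between 0.01 and 0.29. LIG1, the DNA ligase of replication, stood at 0.79 (adjusted p = 0.0621) and POLA2 at 0.71 (adjusted p = 0.169). In all, 1 of 37 replication genes rose, and none of 39 cell cycle genes passed. NCAPD3, a condensin II subunit, rose 1.77-fold, and FAN1, a nuclease of crosslink repair printed as MTMR15 on the array, rose 1.84-fold.

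Ribosomal genes rose in isolated cases. RPS10 had ratios of 2.03, 1.43, 0.29 and 0.76 (2.19-fold, adjusted p = 0.0127), with the pair of Cy5 arrays above the pair of Cy3 arrays. RPS9 had ratios of 0.60, 0.26, 1.06 and 0.96 (1.65-fold, adjusted p = 0.0419), the opposite order. Thus 2 of 62 cytosolic ribosomal protein genes rose, and the median was 0.04. By array the list's median was 0.16, 0.24, -0.08 and -0.05 on replicates 1 to 4, so its sign followed the dye. RPL13 stood at 0.59 (adjusted p = 0.166) by its brightest probe, while a dimmer RPL13 probe passed at 1.15. Among 69 mitochondrial ribosomal genes MRPL28 rose 1.78-fold by its brightest probe, and the list's median was 0.05. The other MRPL28 probes, at 0.55, 0.30 and 0.27, did not pass, nor did the mean of all its probes. MRPL2 at 0.88 (adjusted p = 0.0806) and MRPS34 at 0.72 (adjusted p = 0.0975) were short of the threshold. None of 40 translation factors and none of 39 ribosome biogenesis genes passed. POLR1B, the second largest subunit of RNA polymerase I, stood at -0.54 (adjusted p = 0.165) and NIP7 at -0.49.

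Lysosomal and protein quality genes followed. ACP5, an acid phosphatase, had ratios of 0.89, 0.82, 1.60 and 1.45 (2.28-fold, adjusted p = 0.0101). CTSZ, a lysosomal cathepsin, had ratios of 1.40, 0.37, 1.80 and 0.81 (2.13-fold, adjusted p = 0.0132). LAMP1, a lysosomal membrane protein, had ratios of 0.85, 0.91, 1.02 and 0.94, among the closest sets of 4 in the called genes (1.90-fold, adjusted p = 0.0135). The other LAMP1 probe read 0.31 (adjusted p = 0.882), and averaged over its probes LAMP1 did not pass. ACP5, CTSZ and LAMP1 were the 3 called of 41 lysosome and proton pump genes, with a median of 0.05. ATP6AP2, a proton pump accessory protein, stood at -0.55 (adjusted p = 0.18). None of 39 proteasome genes passed. Their median was 0.10, and 29 of 39 were positive, beside 5724 of 11718 named genes. This lean was not particular to the proteasome: 28 of 39 cell cycle genes were positive. Matrix and integrin genes leaned the other way, with 9 of 31 positive and a median of -0.04. PSMD4, the ubiquitin receptor of the proteasome, stood at 0.80 (adjusted p = 0.0634). HSPA1A, the inducible HSP70, rose 1.73-fold and was the 1 called of 37 chaperone genes. It has near-identical copies, so its probe may read more than 1 gene. CLPP, a mitochondrial protease, rose 1.78-fold. KEAP1, the sensor that holds back the antioxidant factor NRF2, had ratios of 1.04, 1.0, 1.12 and 0.74 (1.97-fold, adjusted p = 0.0122). MAFG, a small MAF partner of NRF2, rose 1.65-fold, while NFE2L2, the gene of NRF2, stood at -0.16. Of 33 antioxidant genes KEAP1 was the 1 called, and the median was 0.11. None of 26 genes of the amino acid and integrated stress response and none of 23 of apoptosis and p53 passed.

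**Figure D4:**
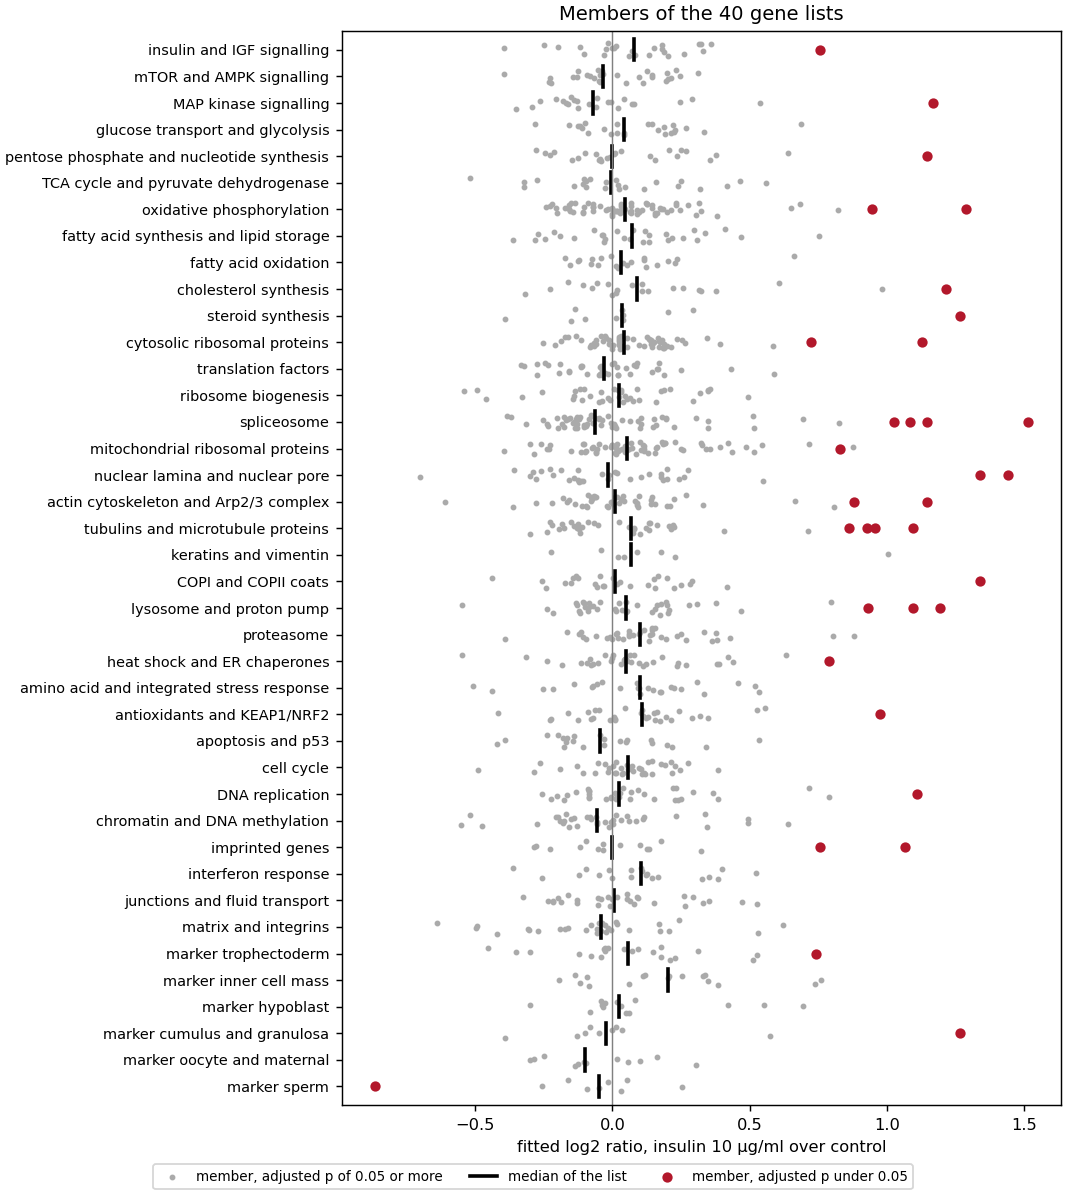
Fitted log2 ratios of insulin over control for the measured members of 40 gene lists, 1 row per list. Grey points did not pass the threshold, red points did, and the black bar is the list's median. Medians lie between -0.10 and 0.20, and no list has more than 4 red points.

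Of the 40 lists, 20 held at least 1 gene that rose, 1 held the gene that fell and 19 held none. In all, 31 of 69 called genes belonged to at least 1 list, and the lists held 1214 of the 11718 named genes measured. The lists were chosen with earlier results of these data known, so this count is not a result about the pathways. Among called genes outside the lists, WDR5, which presents histone H3 to lysine methyltransferases, had ratios of 0.76, 0.46, 1.56 and 0.91 (1.89-fold, adjusted p = 0.0163). Its partners ASH2L, RBBP5 and DPY30 lay between -0.33 and -0.03. CHD2, a chromatin remodeler, rose 1.81-fold. APLP2, a relative of the amyloid precursor protein, had ratios of 1.20, 1.05, 0.84 and 1.13 (2.08-fold, adjusted p = 0.0101). HN1, now JPT1, rose 1.94-fold and DNAJC5, a chaperone of secretory vesicles, 1.89-fold. SLC6A20, a proline transporter, had ratios of 0.99, 0.64, 1.03 and 0.91 (1.86-fold, adjusted p = 0.0124). MICALL1, an adaptor of recycling endosomes, had ratios of 0.76, 0.81, 0.76 and 0.86, the narrowest set of 4 among the called genes (1.74-fold, adjusted p = 0.0173). Its other probes read 0.83 and -0.26, and neither passed. Averaged over its probes, MICALL1 did not pass. UBR4, a ubiquitin ligase, rose 1.67-fold, and ASCC2, a subunit of the ASCC complex, 1.86-fold. For ASCC2, replicate 4 read 0.16 and the others 1.04 to 1.21, and a dimmer ASCC2 probe stood at -0.04. The remaining rises, between 1.64-fold and 2.16-fold, were those of PPAP2C, GMPPA, MCRS1, SNX8, NOC2L, PTPN5, H2AFJ, CHKB, FAM96B, UBL7, BNIP1, GPRC5C, NFE2, PDCD5, BAT4 and 3 genes known by locus number. Among these, GMPPA helps regulate GDP-mannose supply, CHKB makes phosphocholine, SNX8 sorts endosomes and NFE2 is a partner of small MAF proteins. Of 16 imprinted genes 2 rose, IGF2R and CD81, the latter a tetraspanin known to be imprinted in mouse placenta (2.09-fold, adjusted p = 0.0127). None of the 20 interferon response genes, the 30 junction and fluid transport genes, the 31 matrix and integrin genes or the 38 genes of chromatin and DNA methylation passed.

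Of the blastocyst's lineage markers, 1 passed the test. The label was checked first: KRT8, KRT18, KRT19, CDX2, GATA3, POU5F1 and NANOG all passed the filter, and 22 of 23 trophectoderm markers on the array did. TEAD4, a transcription factor that in mouse specifies the trophectoderm, rose, with ratios of 0.85, 0.54, 0.89 and 0.69 (1.67-fold, adjusted p = 0.0371). A dimmer TEAD4 probe read 0.15 (adjusted p = 0.961), with replicate 2 at -0.25, and the mean of both probes, 0.45, did not pass (adjusted p = 0.298). The other 3 TEAD genes lay between -0.16 and 0.21. CDX2 stood at 0.18 ± 0.16, GATA3 at 0.15 ± 0.16, KRT8 at 0.04 ± 0.16 and KRT18 at 0.18 ± 0.16. KRT8 had ratios of 0.86, 0.37, -0.31 and -0.75, so its sign followed the dye (adjusted p of the dye effect 0.0439). GATA2, a trophectoderm factor, stood at 0.51 (adjusted p = 0.344) and AMOT, a Hippo pathway scaffold, at -0.45 (adjusted p = 0.402). TEAD4 was the 1 of 22 trophectoderm markers that rose. The list's summed level was 254900 to 281076 in the insulin channels and 208409 to 282155 in the control channels. It was higher with insulin on replicates 1 and 2 (insulin in Cy5) and lower on replicates 3 and 4 (insulin in Cy3), so its direction followed the dye.

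None of 17 inner cell mass markers passed, and their median of 0.20 was the highest of the 40 lists. SOX2, a pluripotency factor, came closest, with ratios of 0.65, 0.86, 1.20 and 0.32 (fitted 0.76 ± 0.18, adjusted p = 0.0644). NANOG stood at 0.21 ± 0.20 and POU5F1 at -0.12 ± 0.16. TDGF1, a NODAL co-receptor, stood at 0.74 (adjusted p = 0.624), with replicate 1 at -0.09 and the others at 0.98 to 1.04. The list's sum was 29255 to 40092 with insulin and 28569 to 33195 in control. It was higher with insulin on 3 of 4 arrays and lower on replicate 4 (29295 against 33183). The highest sum was that of replicate 2, on which NANOG alone read 16227 with insulin and 9592 in control. None of 14 hypoblast markers passed, with a median of 0.02. APOA1, an apolipoprotein made by hypoblast and yolk sac, stood at 0.70 (adjusted p = 0.121) by its brightest probe, on which replicate 1 read -0.25 and replicate 4 read 1.63. A dimmer APOA1 probe passed at 0.85 and was positive on 3 of 4 arrays. GATA6 and IFNT2 have no probe under these symbols.

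**Figure D5:**
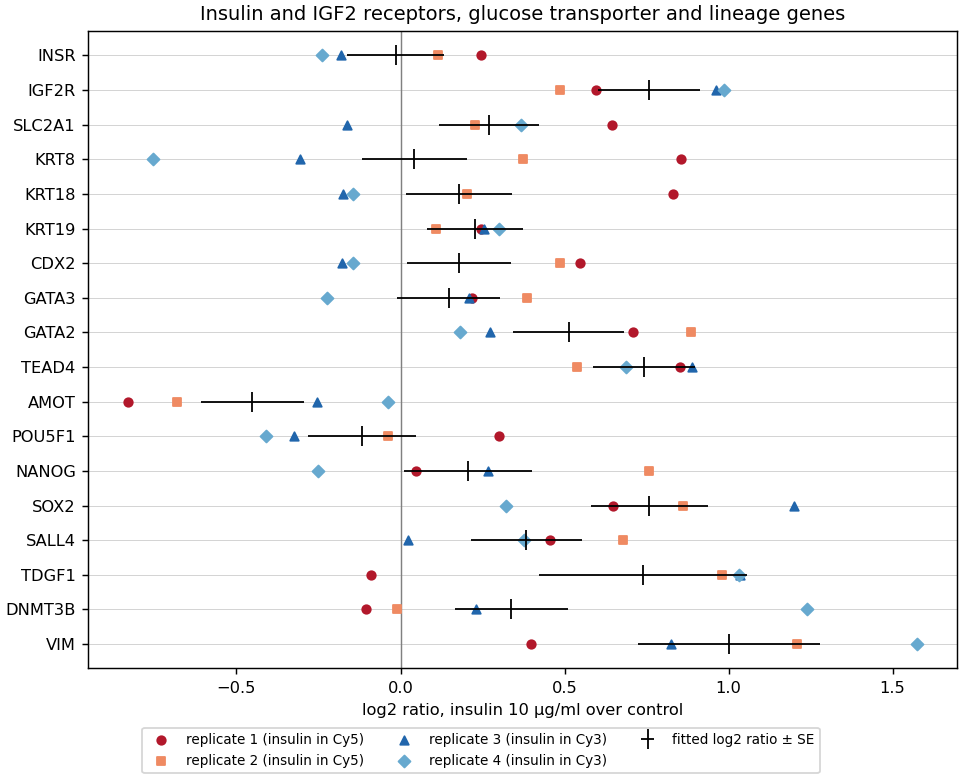
Log2 ratios of insulin over control on each of the 4 arrays for receptors, the glucose transporter SLC2A1 and lineage genes, with the fitted ratio and its standard error as tick and bar. IGF2R and TEAD4 have all 4 arrays to the right of 0, the lowest at 0.49 and 0.54, whereas INSR, KRT8 and CDX2 lie to the right of 0 on the Cy5 arrays (replicates 1 and 2) and to the left on the Cy3 arrays.

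PRM1 was the named gene that fell, with ratios of -0.84, -0.54, -0.73 and -1.36 (fitted -0.87 ± 0.17, 1.82-fold lower, adjusted p = 0.0206). The 4 arrays all lay below 0, replicate 4 the lowest. It belonged to 9 measured sperm genes, of 17 on the array, and PRM2, PRM3 and ACR did not pass the filter. TNP1, a transition protein of sperm chromatin, stood at -0.26. The list's sum without PRM1 was 1364 to 2251 with insulin and 1695 to 2269 in control, with insulin higher on 1 of 4 arrays. None of 12 oocyte and maternal genes passed. Their median was -0.10, 5 of 12 were positive, and 1 of 12 was negative on all 4 arrays. That gene was DPPA3, a maternal factor that protects DNA methylation in the mouse zygote, with ratios of -0.35, -0.35, -0.24 and -0.21 (adjusted p = 0.779). The list's sum was lower with insulin on 4 of 4 arrays, 9738 to 12331 against 11608 to 15147, and DPPA3 alone made up most of it. The negative ratios next in order of p did not reach the threshold: DDX52, an RNA helicase, at -0.71 (adjusted p = 0.0503), SIPA1L2 at -0.64 (adjusted p = 0.0588), PUM2, an RNA-binding repressor of translation, at -0.72 (adjusted p = 0.0626, with a dye effect past the threshold), CYR61, a matrix protein and YAP target now named CCN1, at -0.64 (adjusted p = 0.0836), and PNLIP at -0.73 (adjusted p = 0.0877). INTS2, DIAPH3, UPK1A and POLR1B followed, between -0.69 and -0.54.

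Where a gene had several probes, the others mostly pointed the same way at smaller size. Of the 69 called genes, 23 had more than 1 measured probe. Their 36 further probes had a median log2 ratio of 0.30, 29 were positive, 16 had an unadjusted p under 0.05 and 5 passed the adjusted threshold. Some were flat or opposite, such as those of GMPPA at 0.04 and BAT4 at -0.22. In genome span the 68 higher genes had a median of 12.3 kb, beside 21.8 kb for 11607 named genes with a RefSeq span, and 41.2% of them were under 10 kb, beside 29.9%. The part of gene span was not tested.

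The high dose was then set against the low dose on the other slide. No probe passed the threshold for this difference (limma, 0% of 29384, smallest adjusted p = 0.9999), and 845 had an unadjusted p under 0.05. These 845 were a smaller share of the probes than the 0.05 expected with no difference. With replicate number as a block and separate dye terms for the slides, 1985 had an unadjusted p under 0.05, a larger share than 0.05. Again 0 passed the threshold. The 95% interval of the difference had a median half-width of 0.48 on the log2 scale. Both comparisons used control blastocysts whose RNA may be shared between slides, and slide and dose cannot be told apart. For the 68 higher genes the low-dose log2 ratios lay between -0.00 and 1.32, with a median of 0.72, beside the high-dose median of 0.92. The 68 were picked by their high-dose values, which lifts their high-dose ratios. The gap between the medians therefore does not measure an effect of dose, and the gene values below carry the same limit. At the low dose 13 of the 68 passed the threshold, beside 0.109% of all probes. The 68 were picked in the same fit, whose spread estimate and dye term both doses share. The 13 are therefore not an independent replication, and a count of genes stands here beside a share of probes. PRPF6 had 1.51 at the high and 0.92 at the low dose, LMNA 1.44 and 1.17, and CYP11A1 1.26 and 0.43. PVRL2, now NECTIN2, a cell adhesion molecule, had 0.73 at the high dose and -0.00 at the low dose, RPS9 had 0.72 and 0.09, and ARPC1A had 0.88 and 0.21. Others of the 68 had the higher ratio at the low dose. Among them, ARL6IP4 had 1.08 at the high and 1.32 at the low dose, and TUBB3 0.86 and 1.03. None of these differences passed the test. The differences with the smallest unadjusted p were those of TPI1 (0.95 ± 0.24 SE, with a dye effect past the threshold), NGFR (0.87 ± 0.22), LOC508858 (-0.79 ± 0.21), PRR12 (-0.88 ± 0.25) and INTS2 (-0.78 ± 0.22), and none passed after adjustment.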

How the data were processed

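Each array was scanned at 2 wavelengths, and the deposited files hold the median intensity and local background of each spot as scanned. The authors also deposited a log2 ratio per probe. It correlated with background-subtracted, loess-normalized scanner ratios at r of 0.993 or more on each array, with insulin over control as its direction, and served as an alternative. The RNA was amplified in 2 rounds, per the labels' protocols, and the image software is not given in the sources used here.

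Intensities were corrected with normexp (offset 50), normalized by loess within each array, turned to insulin over control and fitted with limma 3.58.1 in R 4.3.3 on all 8 arrays, with a term per dose and a dye term. Probes above the negative controls' mean plus 2 SD in at least 4 of 16 readings were kept, 29384 of 43794. Significance was an adjusted p under 0.05 (Benjamini-Hochberg over all kept probes), and a gene was read from its brightest probe. Symbols are the array's, updated through RefSeq names.

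The members and gene lists were chosen with earlier results of these data known. Genes were named by a rule: all past the threshold, the 10 lowest p among negative ratios, up to 4 further members of each list by p, and a fixed set of receptors and lineage genes. Genes named beyond the rule are family members or flagged values. Same-numbered arrays of the 2 doses deviated together (r = 0.312, 0.221, 0.257 and 0.249), so replicate number was also fitted as a block, with separate dye terms for the slides. Whether replicates came from separate cultures is not stated beyond the series' wording, and p-values measure the spread between these arrays, whose number limits the precision. The fit was tested on simulated data.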

Additional observations from a re-analysis of the deposited data

Results flagged for a closer look

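Of 288 results tested, 247 genes and 41 list medians, 12 had 1 array far from the other 3, and chance gives about 1 in 20. Values are log2 ratios of insulin over control. On replicate 1, TDGF1 read -0.0887 against 0.98 to 1.04 on the others, UQCRC1 read 1.58 against 0.29 to 0.43, and ATP5J, an ATP synthase subunit, read 0.36 against 0.03 to 0.08. The median of the COPI and COPII coat list was 0.21 on replicate 1 against -0.07 to -0.02.

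On replicate 2, GCLC, an enzyme of glutathione synthesis, read 0.18 against 0.66 to 0.70. PAG11, a pregnancy-associated glycoprotein of the trophectoderm, read -0.23 against 0.70 to 0.82. HSPE1, a mitochondrial chaperonin, read 0.0439 against -0.80 to -0.71. On replicate 3, NDUFB7 read 1.92 against 0.41 to 0.54 and U2AF1 read 1.21 against 0.49 to 0.57. On replicate 4, ASCC2 read 0.16 against 1.04 to 1.21, IGFBP2 read -0.11 against 0.44 to 0.46, and SYNE2 read -2.32 against -0.30 to -0.08. ASCC2 alone among these passed the threshold.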

How the results depend on the processing

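The count of 128 probes fell to 0 with a normexp offset of 16, with no dye term and with eBayes trend and robust, and was 297 with the high-dose arrays fitted alone. It was 171 in a fit that changed 2 choices together, replicate number as a block and separate dye terms for the slides. Of the 69 called genes, ATP5D lost its call in that fit, and the 2 choices were not fitted apart. Leaving out 1 array at a time gave 0 to 199. Called list genes numbered 31, then 0, 0 and 0 under the same 3 settings, 58 with the high-dose arrays alone and 15 when a gene's probes were averaged. Leaving out 1 array gave 0 to 43. The 1538 probes with a dye effect became 453 with probes detected in all readings, 2486 with no filter and 798 with the high-dose arrays alone, and 666 to 1080 with 1 array left out. The difference between doses gave 0 calls under all 12 alternatives and with any of 8 arrays left out. Of the 69 called genes, 46 kept the call under median centring, 61 with the authors' deposited ratios and 25 with the mean of probes. Of 178 uncalled genes tried, 32 passed in at least 1 alternative. One alternative, not counting ignored spots as detected, was chosen after seeing the data and gave 128. Causes were not tested.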
